A study of Homo sapiens with 6 samples.

Results

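The nucleoporin and karyopherin genes of U87, an established human glioblastoma cell line, were followed through siRNA knockdown of the long noncoding RNA LINC00152. The members are the genes whose symbol is NUP, KPNA, IPO or XPO with a number, together with KPNB1, XPOT and TNPO1 to TNPO3, and 45 of the 27192 genes counted met that rule, which used no measured value. Of these, 21 are nucleoporins and 24 are karyopherins. All 6 libraries came from U87 cells that went through lipid transfection in 2 rounds 24 hours apart and were harvested 24 hours after the second. The control group, siGL2, received a nonspecific siRNA (libraries A, B and C), and the siLINC00152 group received a combination of 2 siRNAs against the RNA (libraries A, B and C). The 2 siRNAs were given only together, so their separate effects cannot be told apart, and the labels do not say whether the 3 libraries of a group came from separate cultures. The p-values therefore measure the spread between these libraries, which may be technical.

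Nuclear pore complexes are the gates between nucleus and cytoplasm. Their scaffold is built from stacked outer and inner rings, the central channel is filled with nucleoporins rich in phenylalanine-glycine repeats, filaments reach into the cytoplasm and a basket hangs into the nucleus. Karyopherins are the carriers that pass through this channel: importin alpha adaptors read nuclear localisation signals and hand cargo to importin beta (KPNB1), other importins and transportins bind cargo directly, and exportins carry proteins, tRNA and precursor miRNA outward. The GTPase Ran, kept loaded with GTP in the nucleus by RCC1, gives each trip its direction.

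LINC00152 itself fell 5.68-fold, which fits the labels, with counts of 650, 608 and 776 in the control libraries and 114, 112 and 109 after knockdown (adjusted p = 4.55e-15, by edgeR's quasi-likelihood test with the Benjamini-Hochberg adjustment). Total counts ran from 41963120 to 46234763 per library. Control library A differed more from B and C (chi-square per degree of freedom 10.9 and 13.7) than B from C (2.91). Of the glial and glioma markers looked up, VIM, NES and CD44 were expressed, at 8977, 38.3 and 2696 CPM (counts scaled to library size with the TMM factor of each library) in the control and 6866, 31.5 and 2179 CPM after knockdown. All 3 fell, by 0.39, 0.28 and 0.31 on the log2 scale. The 7 glial and glioma markers summed to 11327 to 11956 against 8893 to 9194 CPM, nearly all of it VIM and CD44. OLIG2, at 0.541 against 0.437 CPM with overlapping groups, did not pass, and GFAP, S100B and SOX2 averaged at most 0.154 CPM. The microglial markers PTPRC, AIF1 and CX3CR1 summed to at most 0.115 CPM in any library. AIF1 is listed at 0 in all 6 libraries, and the cause of that 0 was not tested. The 3 neuronal markers summed to 75.1 to 77.6 CPM in control cells and 51.4 to 56.9 CPM after knockdown, nearly all of it SNAP25 and SYT1, with RBFOX3 at or near 0. The endothelial markers summed to 1.921 to 2.601 against 1.78 to 1.83 CPM, within which PECAM1 fell by 0.88 and VWF rose by 1.10 on the log2 scale. The part of these markers in the results below was not tested. In bulk RNA, fewer cells of a kind and less RNA per cell cannot be told apart.

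Knockdown was accompanied by many small changes in this machinery, in both directions. Of the 45 genes, 42 had enough counts to be tested, and 30 of them passed at an adjusted p under 0.05 (edgeR), 12 higher and 18 lower. That is 71.4% of the tested members, beside 64.3% of all 14078 tested genes (32.2% higher and 32.2% lower). The changes were small: the median absolute log2 fold change was 0.17 in the members and 0.28 over all tested genes. A single member, NUP58, passed with a change of at least 1.5-fold, whereas 20.0% of all tested genes did. These sets were not matched on level. Mean control levels ran from 6.30 to 691.8 CPM in the tested members and from 0.0673 to 8977 CPM over all tested genes. The largest SE was 0.085 in the members and 1.67 over all tested genes. Whether the changes were smaller than in genes of like level was not tested. The groups did not overlap in 30 of the 42 members, beside 67.7% of all tested genes. The median log2 fold change was −0.05 in the members and −0.00 over all tested genes. With library size alone as the scale, which moves the median of all tested genes to −0.07, 7 members were higher and 22 lower. The plot of fold changes by class shows how these changes divide among the parts of the pore and the carriers.

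**Figure D1:**
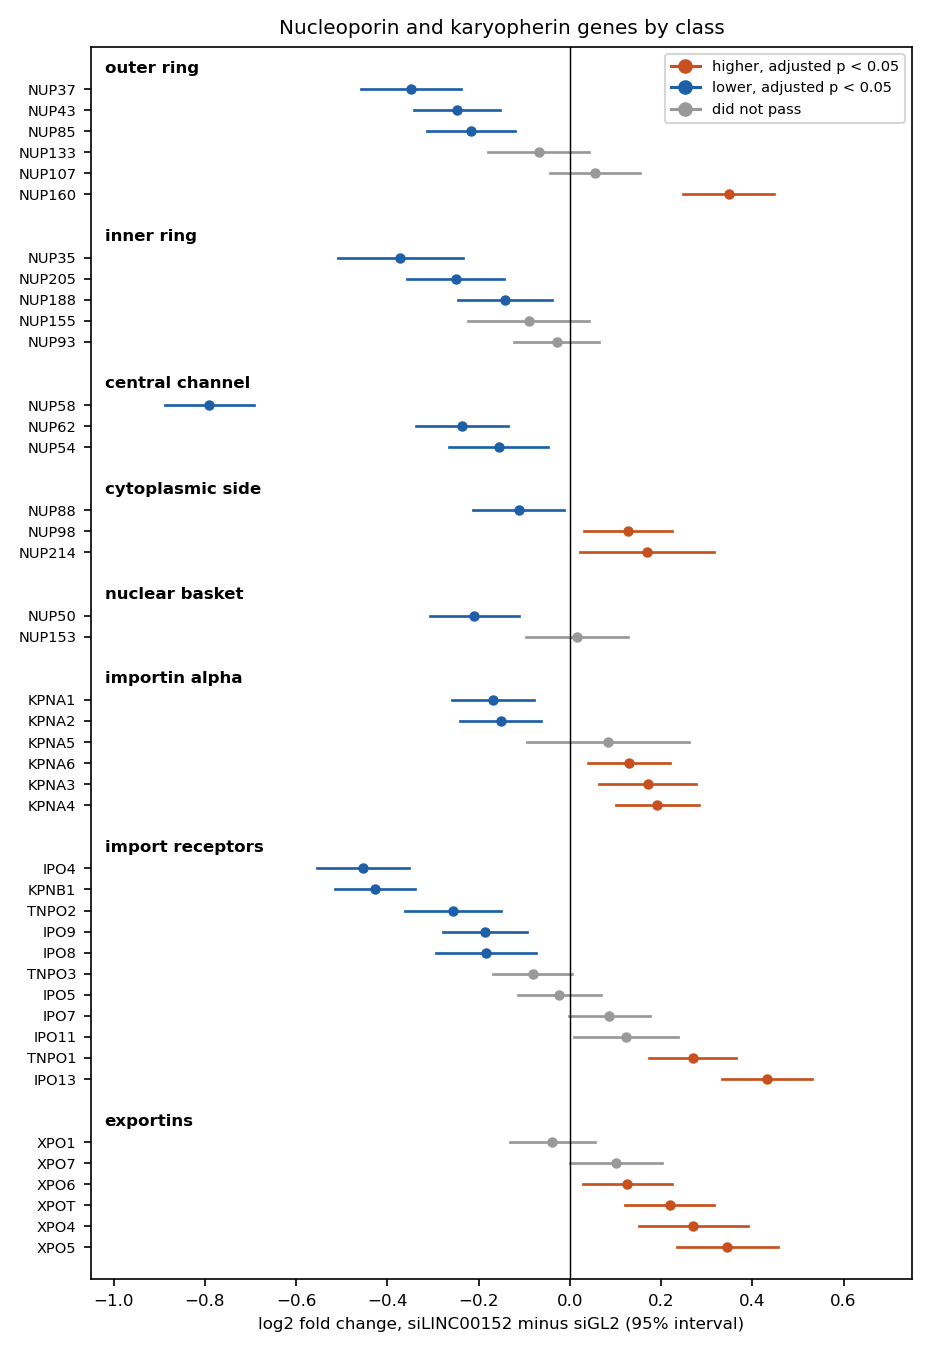
Log2 fold change (siLINC00152 minus siGL2, horizontal axis) of the 42 tested members, by class, with 95% confidence intervals from edgeR; colour marks genes past an adjusted p of 0.05. NUP58 lies farthest left at −0.79, IPO13 farthest right at 0.43, and with this scale no exportin passed downward, whereas XPO1 did with library size alone. No inner ring or channel gene passed upward.

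The 3 members that could not be tested had few counts. NUP210, the transmembrane nucleoporin, had counts of 2, 9 and 7 in the control libraries and 0, 4 and 1 after knockdown. NUP210L, its paralog known from testis, had 4, 5 and 3 against 5, 0 and 5 counts, and KPNA7, an importin alpha known from oocytes and embryos, had 2, 1 and 1 against 1, 3 and 6. A count of 0 allows up to 3 counts, or 0.0634 to 0.0730 CPM by library, for counting error alone. The 3 genes were below the filter on low counts, and their differences were not tested. The highest value among them, 0.208 CPM for NUP210 in control library B, lay above that limit. The lowest mean among tested members, by contrast, was 6.30 CPM in the control for KPNA5, and the highest was 691.8 CPM for KPNB1.

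All 3 members of the central channel fell, beside 32.2% of all tested genes that passed downward. NUP58, NUP62 and NUP54 are the phenylalanine-glycine nucleoporins that together line the transport channel. NUP58 stood at 76.8, 75.3 and 77.4 CPM in the control libraries and at 44.1, 45.4 and 43.2 CPM after knockdown, a level of 57.8% of the control. The 6 libraries fall into separate groups with a wide gap between them. Its log2 fold change was −0.79 ± 0.05 (SE; edgeR adjusted p = 7.75e-12). NUP62 had 83.4, 84.4 and 81.0 CPM in control cells and 74.4, 68.2 and 68.8 CPM after knockdown, a log2 fold change of −0.24 ± 0.05 (adjusted p = 2.48e-04, edgeR). NUP54 had 54.4, 56.5 and 60.7 against 49.0, 52.4 and 52.6 CPM, with a log2 fold change of −0.16 ± 0.05 (adjusted p = 0.0131, edgeR). The groups of NUP62 and NUP54 also did not overlap, but came closer. Leaving out control library C or knockdown library A, NUP54 no longer passed (adjusted p = 0.0928 and 0.0672, edgeR).

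The counts of the 3 partners therefore stood in a different proportion after knockdown, whatever the scale between libraries. For each NUP58 count there were 1.09, 1.12 and 1.05 counts of NUP62 in the control libraries and 1.686, 1.503 and 1.593 after knockdown. For NUP54 the ratio to NUP58 was 0.708, 0.751 and 0.784 in the control and 1.111, 1.153 and 1.219 after knockdown. Both ratios were higher in each knockdown library than in each control library. These pairs were picked with the values in view and carry no test. The summed level of the channel genes was 216.6 ± 2.27 CPM in control cells and 166.0 ± 1.51 CPM after knockdown (SD, n = 3).

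NUP58 lies on chromosome 13, from 25301524 to 25349800 on the plus strand (GENCODE release 29, hg38). Sequence around its start is shown with that of IPO4 and IPO13, the import receptor genes with the largest fall and the largest rise, because these 3 genes mark the extremes of the set. KPNB1 has no entry in the promoter table. Each line gives the 250 bases before the start that RefSeq annotates (GRCh38.p14), 5′ to 3′ along the gene: chr13:25301375-25301624 (plus strand) for NUP58, chr14:24188817-24189066 (minus strand) for IPO4 and chr1:43946700-43946949 (plus strand) for IPO13. RefSeq and GENCODE place the starts differently, so that the end of each window lies inside the span GENCODE gives the gene, and in NUP58 and IPO4 the marked word does too. Capitals mark matches on either strand. The words searched were CCGGAAG for ETS factors, GGGCGG for SP1, the box CCAAT for NF-Y, the cell cycle element TTTGAA, the word GCGGGAA for E2F and the palindromic consensus of NRF1. None of them overlaps another match here.
NUP58: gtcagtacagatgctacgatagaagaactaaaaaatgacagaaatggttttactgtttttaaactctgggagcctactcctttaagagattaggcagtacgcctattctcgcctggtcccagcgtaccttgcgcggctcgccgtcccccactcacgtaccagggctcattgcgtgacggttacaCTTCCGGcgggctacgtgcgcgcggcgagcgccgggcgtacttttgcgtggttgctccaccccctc
IPO4: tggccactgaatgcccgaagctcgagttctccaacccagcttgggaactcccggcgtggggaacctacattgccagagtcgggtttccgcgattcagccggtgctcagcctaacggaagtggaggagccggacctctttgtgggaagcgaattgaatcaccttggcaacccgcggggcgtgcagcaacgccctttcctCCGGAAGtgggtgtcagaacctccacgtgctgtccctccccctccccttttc
IPO13: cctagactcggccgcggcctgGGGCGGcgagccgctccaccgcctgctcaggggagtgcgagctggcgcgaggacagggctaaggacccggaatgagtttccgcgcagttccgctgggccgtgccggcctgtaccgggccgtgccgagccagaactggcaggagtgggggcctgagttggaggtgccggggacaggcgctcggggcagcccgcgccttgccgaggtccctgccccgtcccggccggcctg
NUP58 and IPO4 each hold a single ETS-type word, on opposite strands, and IPO13 a single SP1-type word, and no window holds more than 1 match. Promoter windows were found for 37 of the 42 tested members, with more than 1 start for some. The ETS-type word stood in 7 of 18 windows of members that fell and 3 of 16 windows of members that rose, beside 13.3% of windows of all tested genes and 8.52% of all windows. The SP1-type word stood in 7 of 18 and 12 of 16 windows, beside 61.3% of windows of tested genes and 42.6% of all windows. In the same order, the NF-Y box stood in 7 and 9 windows, beside 33.0% of windows of tested genes. The cell cycle element stood in 4 and 2, beside 9.35%, and the E2F word in 0 and 3, beside 7.94%. The NRF1 consensus stood in 2 and 0, beside 1.59%. These differences were not tested. A match says only that the letters are present.

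The outer ring split, with 1 gene higher and 3 lower, or 66.7% called beside 64.3% of all tested genes. It is formed by the Y-shaped complex, whose members counted here are NUP37, NUP43, NUP85, NUP107, NUP133 and NUP160. The scaffold protein NUP96 comes from the NUP98 gene, which is counted with the cytoplasmic side. NUP37 fell from 42.4, 45.6 and 46.1 CPM to 34.9, 34.2 and 36.3 CPM, a log2 fold change of −0.35 ± 0.05 (SE; edgeR adjusted p = 7.01e-06). NUP43, with 85.6, 82.9 and 83.3 against 70.6, 72.1 and 69.5 CPM, fell by 0.25 ± 0.05 on the log2 scale (SE; edgeR adjusted p = 7.31e-05). NUP85 fell by 0.22 ± 0.05. NUP160, which forms an arm of the Y together with NUP37, rose instead. It had 84.0, 77.9 and 78.3 CPM in the control libraries and 100.7, 105.6 and 99.5 CPM after knockdown, so that each knockdown library lay above each control library. Its log2 fold change was 0.35 ± 0.05 (SE; edgeR adjusted p = 2.27e-06). NUP160 lies on chromosome 11 (hg38, 47778087 to 47848555, minus strand) and NUP37 on chromosome 12 (102073103 to 102120124, minus strand). NUP107 (0.06 ± 0.05) and NUP133 (−0.07 ± 0.05), which belong to the stem, did not pass. With library size alone as the scale, NUP107 stood at −0.012 and NUP133 passed downward at −0.14. NUP160 counts per NUP37 count were 1.98, 1.71 and 1.70 in the control libraries and 2.89, 3.09 and 2.74 after knockdown. The summed level of the 6 genes overlapped between the groups, at 402.9 to 410.6 CPM against 391.7 to 410.5 CPM.

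Of the 5 inner ring genes 3 fell, or 60% called beside 64.3% of all tested genes, and NUP93 and NUP155 did not pass. NUP35, a small membrane-binding subunit, had 27.2, 30.4 and 30.5 CPM in control cells and 20.9, 24.7 and 22.5 CPM after knockdown. Its log2 fold change was −0.37 ± 0.07 (SE; edgeR adjusted p = 4.82e-05). NUP205, one of the large scaffold proteins, had 306.7, 274.5 and 268.4 against 233.5, 247.8 and 232.8 CPM, with control library A the highest. It fell by 0.25 ± 0.05 on the log2 scale (SE; edgeR adjusted p = 2.12e-04), and by 0.19 without control library A. NUP188, its paralog in the scaffold, fell by 0.14 ± 0.05 (adjusted p = 0.0170, edgeR), a call that was lost without control library A (−0.09), knockdown library A (−0.14) or knockdown library C (−0.13). NUP93, which ties the channel to the ring, stood at 94.2 ± 2.26 CPM in control cells and 92.3 ± 0.254 CPM after knockdown (SD, n = 3). The 95% interval of its log2 fold change was −0.12 to 0.06. NUP155 (−0.09 ± 0.06) ranged from 77.3 to 95.3 CPM in control cells and from 76.6 to 82.8 CPM after knockdown, with overlapping groups. It passed downward at −0.16 with library size alone and −0.15 without control library B, and stood at 0.0038 without control library A.

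On the cytoplasmic side and in the basket the shifts were small and went both ways. NUP98, which the gene encodes together with the scaffold protein NUP96 as a single precursor, had 182.0, 166.4 and 167.6 CPM in control cells and 184.9, 192.1 and 186.4 CPM after knockdown. It rose by 0.13 ± 0.05 (SE; edgeR adjusted p = 0.0212). NUP214, a filament nucleoporin, rose by 0.17 ± 0.07 (adjusted p = 0.0427, edgeR) although its groups overlapped, with 94.8, 79.2 and 74.4 against 93.1, 90.9 and 95.2 CPM. NUP88, which holds NUP214, fell by 0.11 ± 0.05 (adjusted p = 0.0474, edgeR). None of these 3 calls held in every alternative. Without control library B or C, knockdown library A, B or C, NUP214 stood between 0.10 and 0.19 and NUP88 between −0.13 and −0.08, neither passing. NUP98 did not pass without control library B (0.10) or C (0.11), nor without knockdown library B (0.11) or C (0.13). With library size alone as the scale, neither NUP98 (0.06, adjusted p = 0.264, edgeR) nor NUP214 (0.10, adjusted p = 0.200, edgeR) passed. In the basket, NUP50, a cofactor of import, had 120.6, 111.0 and 115.0 against 97.4, 102.6 and 99.7 CPM. It fell by 0.21 ± 0.05 (SE; edgeR adjusted p = 5.88e-04), while NUP153 did not pass at 0.02 ± 0.05 and stood at −0.051 with library size alone, −0.022 without control library B and −0.016 without control library C.

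**Figure D2:**
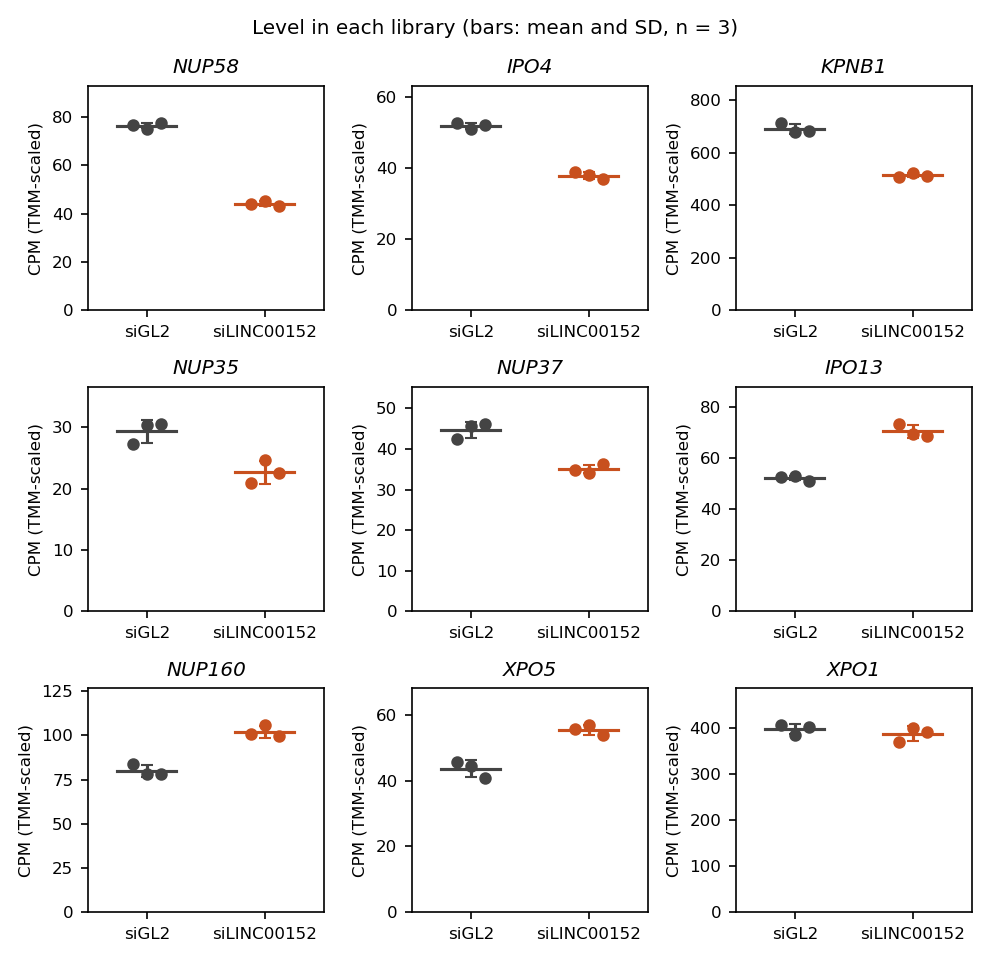
TMM-scaled CPM (vertical axes, from 0) of 9 members in each of the 6 libraries, with mean and SD (n = 3). The groups are apart in NUP58, IPO4, KPNB1, NUP35, NUP37, IPO13, NUP160 and XPO5 and overlap in XPO1.

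Among the import receptors, KPNB1 and IPO4 fell most. KPNB1, importin beta, carries the classical import cargo together with the adaptors. Per kilobase of exonic sequence KPNA2 was higher, but by CPM KPNB1 was the most highly expressed member. Its level was 712.6, 678.4 and 684.4 CPM in the control libraries and 508.8, 522.9 and 512.3 CPM after knockdown, a drop to 74.4% of the control with no overlap. The log2 fold change was −0.43 ± 0.04 (SE; edgeR adjusted p = 1.97e-08). The gene lies on chromosome 17 (hg38, 47649476 to 47685505, plus strand). IPO4, a carrier of histones and ribosomal proteins, had 52.6, 51.0 and 52.2 CPM against 38.9, 38.0 and 36.9 CPM and a log2 fold change of −0.45 ± 0.05 (SE; edgeR adjusted p = 6.96e-08). The gene lies on chromosome 14 (hg38, 24180219 to 24188964, minus strand). Of the exonic bases of IPO4, 69.3% overlap other annotated genes on the same strand, and 54.0% of its 75-base stretches recur elsewhere, chiefly in AL136295.4. Its counts are therefore uncertain in their assignment. TNPO2, transportin 2, had 125.1, 115.1 and 112.5 against 103.0, 96.7 and 95.6 CPM and fell by 0.26 ± 0.05 (adjusted p = 1.55e-04, edgeR). IPO9 and IPO8 fell by 0.19 ± 0.04 and 0.18 ± 0.05.

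IPO13 and TNPO1 were the import receptors that rose. IPO13, which carries cargo in both directions, had 52.4, 52.8 and 51.0 CPM in the control libraries and 73.0, 69.3 and 68.5 CPM after knockdown, the largest rise of the set. Its log2 fold change was 0.43 ± 0.05 (SE; edgeR adjusted p = 9.34e-08). The gene lies on chromosome 1 (hg38, 43946939 to 43968022, plus strand). TNPO1, transportin 1, which imports RNA-binding proteins such as hnRNP A1, had 383.9, 348.1 and 360.1 against 428.3, 452.7 and 435.4 CPM, a rise of 0.27 ± 0.05 (SE; edgeR adjusted p = 3.12e-05). The transportin paralogs TNPO1 and TNPO2 thus passed in opposite directions, and TNPO1 counts per TNPO2 count went from 3.07, 3.02 and 3.20 to 4.16, 4.68 and 4.55. IPO13 counts per IPO4 count were 0.996, 1.03 and 0.978 in the control and 1.88, 1.82 and 1.86 after knockdown. TNPO1 counts per KPNB1 count were 0.539, 0.513 and 0.526 against 0.842, 0.866 and 0.850. These ratios do not depend on the scale between libraries, and in each the groups lie apart. The other 4 import receptors did not pass: IPO5 (−0.02 ± 0.04), IPO7 (0.09 ± 0.04), IPO11 (0.12 ± 0.05) and TNPO3, the carrier of SR proteins (−0.08 ± 0.04). Without knockdown library A, IPO5 stood at 0.0028, and IPO7 and IPO11 passed upward (adjusted p = 0.0411 and 0.0407, edgeR). Both also passed upward without control library A, at 0.11 and 0.17. TNPO3 passed downward, at −0.15, with library size alone.

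The importin alpha adaptors moved by little and in both directions. Human cells have 3 subfamilies, formed by KPNA2 and KPNA7, by KPNA3 and KPNA4, and by KPNA1, KPNA5 and KPNA6. KPNA2, a form typical of proliferating cells, had 369.4, 389.4 and 386.8 CPM in control cells and 344.1, 350.6 and 336.7 CPM after knockdown. It fell by 0.15 ± 0.04 on the log2 scale (SE; edgeR adjusted p = 0.00399). KPNA4 had 213.9, 213.8 and 215.2 against 235.1, 253.0 and 246.2 CPM and rose by 0.19 ± 0.04 (adjusted p = 6.43e-04, edgeR). Its close paralog KPNA3, with 90.2, 89.7 and 98.4 against 98.8, 108.2 and 106.3 CPM, rose by 0.17 ± 0.05 (adjusted p = 0.00612, edgeR). In KPNA3 the highest control library and the lowest knockdown library almost touch. The subfamily of KPNA1 did not move as one: KPNA1 fell by 0.17 ± 0.04, KPNA6 rose by 0.13 ± 0.04, and KPNA5, at 6.30 ± 0.0926 and 6.68 ± 0.441 CPM (SD, n = 3), did not pass. In KPNA1, 16.3% of the exonic sequence is overlapped by opposite-strand genes. KPNA3 (0.10) and KPNA6 (0.06) did not pass with library size alone, nor did KPNA6 without control library B (0.12) or C (0.11).

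Per kilobase of exonic sequence, KPNA2 made up most of the importin alpha RNA. It took 58.3% ± 0.814 of the summed CPM per kilobase of the 7 genes in the control and 54.0% ± 0.524 after knockdown (SD, n = 3). The share of KPNA4 was 10.9% ± 0.159 against 12.8% ± 0.336, and that of KPNA3 was 9.93% ± 0.443 against 11.5% ± 0.459. KPNA6 took 11.57% ± 0.492 against 13.02% ± 0.248 and KPNA1 9.05% ± 0.193 against 8.29% ± 0.0436. KPNA5 and KPNA7 together took under 1% in every library. Each of the shares of KPNA1, KPNA2, KPNA3, KPNA4 and KPNA6 lay apart between the groups. The summed CPM of the 7 genes did not, at 1025 to 1044 against 1026 to 1063. Within a library the shares add up to the whole, so a lower share of KPNA2 by itself raises the others. They are therefore not separate results. With the length of the principal transcript in place of all exonic bases, the share of KPNA2 was 62.6% in the control and 58.6% after knockdown.

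Of the 6 exportins 4 rose and none fell, although with library size alone as the scale XPO1 passed downward at −0.11. That is 66.7% called, beside 64.3% of all tested genes (32.2% higher). XPO5, which carries precursor miRNAs to the cytoplasm, had 45.7, 44.4 and 40.6 CPM in the control libraries and 55.7, 56.7 and 53.7 CPM after knockdown. Its log2 fold change was 0.35 ± 0.05 (SE; edgeR adjusted p = 8.46e-06). The gene lies on chromosome 6 (hg38, 43522330 to 43576075, minus strand). XPO4 had 39.2, 34.5 and 37.3 against 43.5, 47.5 and 42.8 CPM and rose by 0.27 ± 0.06 (adjusted p = 3.49e-04, edgeR). XPOT, the exportin of tRNA, had 265.7, 239.8 and 253.9 against 287.5, 305.0 and 291.1 CPM, a rise of 0.22 ± 0.05 (adjusted p = 3.57e-04, edgeR). In each of these genes every knockdown library lay above every control library. XPO6, which exports actin with profilin, rose by 0.13 ± 0.05 (adjusted p = 0.0231, edgeR). It did not pass with library size alone (0.06), nor without control library B (0.12), control library C (0.10) or knockdown library A (0.09).

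XPO1, the exportin of proteins with a leucine-rich signal and the most highly expressed of these 6 by CPM, did not pass. It had 405.9, 386.0 and 403.2 CPM in control cells and 369.7, 401.3 and 392.2 CPM after knockdown, with overlapping groups. The 95% interval of its log2 fold change was −0.13 to 0.05 (edgeR adjusted p = 0.460). XPO7 (0.10 ± 0.05) did not pass either, and passed at 0.14 without control library A and at 0.14 without knockdown library A. The summed CPM of the exportins was 1121 ± 37.9 in the control and 1204 ± 22.2 after knockdown, against 2805 ± 83.1 and 2662 ± 50.9 for the 11 import receptors (SD, n = 3). Within each library, the exportin sum was 0.401, 0.397 and 0.401 of the import receptor sum in the control libraries and 0.452, 0.452 and 0.453 after knockdown. KPNB1 alone fell by more than the import receptor sum did, from a mean of 691.8 to 514.7 CPM. The fall of that sum, and part of the rise in the ratio, therefore rest on KPNB1. XPO1 counts per KPNB1 count went from 0.570, 0.569 and 0.589 to 0.727, 0.767 and 0.766. These sums and ratios are given as descriptions, with no test.

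**Figure D3:**
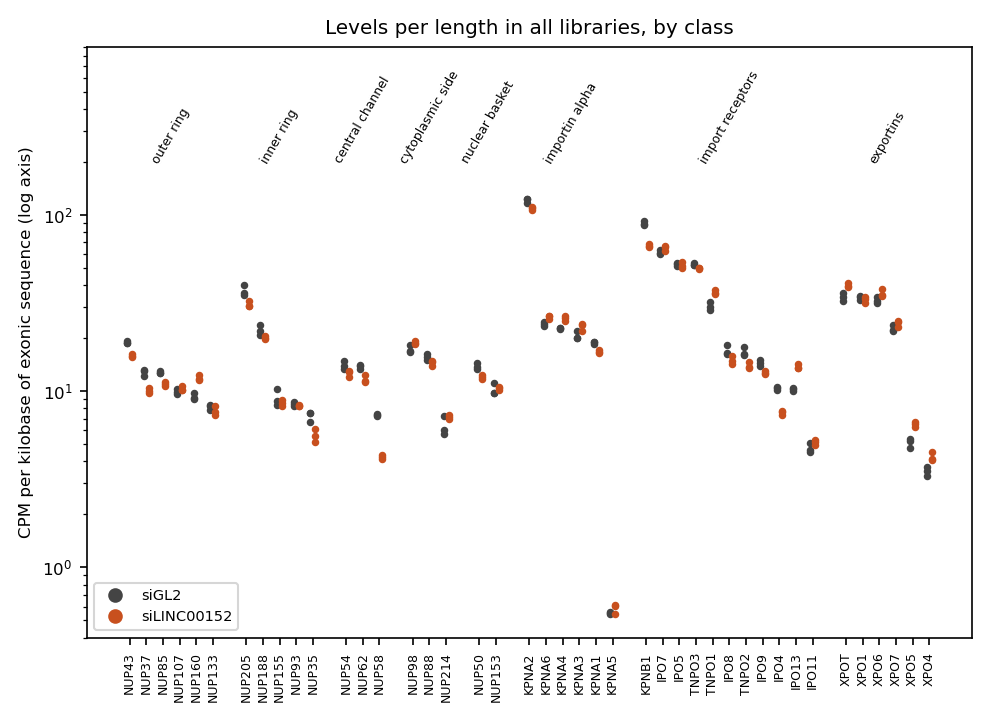
TMM-scaled CPM per kilobase of exonic sequence (log axis) of the 42 tested members in all libraries, by class and ordered by control level. KPNA2 (121.6 in the control) and KPNB1 (90.1) are the highest, KPNA5 (0.552) is the lowest, and most control and knockdown points lie close together.

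Per kilobase the carriers spanned a wider range than the pore. Control levels of the tested nucleoporins ran from 6.34 CPM per kilobase for NUP214 to 37.2 ± 2.70 for NUP205 (SD, n = 3). NUP43 led the outer ring at 18.9, NUP54 the channel at 14.1, NUP98 the cytoplasmic side at 17.4 and NUP50 the basket at 13.9 CPM per kilobase. NUP54 and NUP62 (13.8) differed by less than their spread. Among carriers, KPNA2 reached 121.6 ± 3.47, KPNB1 90.1 ± 2.38 and IPO7 61.3 ± 1.56 CPM per kilobase, and XPOT (34.4 ± 1.76), XPO1 (34.0 ± 0.924) and XPO6 (32.9 ± 1.21) could not be ordered beyond their spread. These orders depend on the length used. With principal transcripts, NUP85, NUP58, NUP88, TNPO1 and XPO1 led the outer ring, the channel, the cytoplasmic side, the import receptors and the exportins, while NUP205, NUP50 and KPNA2 kept the first place of their classes.

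The rest of the transport system was read from a list of 44 further genes, of which 42 were tested. Of these 42, 9 rose and 20 fell, or 69.0%, beside 64.3% of all tested genes. Among the 12 nucleoporins outside the naming rule, 2 rose and 7 fell, or 75% called beside 64.3% of all tested genes. NDC1 among them changed more than any member. NDC1, a transmembrane nucleoporin that anchors the pore in the envelope, had 126.7, 125.0 and 125.6 CPM in control cells and 47.2, 52.4 and 50.8 CPM after knockdown. It fell 2.51-fold, a log2 fold change of −1.33 ± 0.05 (SE; edgeR adjusted p = 5.90e-15). AHCTF1 (ELYS), which seeds pores on chromatin, fell by 0.49 ± 0.05, although 35.1% of its 75-base stretches recur elsewhere, chiefly in the pseudogene AHCTF1P1. NUPL2, the older symbol of NUP42, fell by 0.27 ± 0.06. SEH1L, a partner in the Y complex, fell by 0.25 ± 0.05, and SEC13 of the same complex did not pass (0.00 ± 0.04).

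RANBP2 and TPR rose among these nucleoporins. RANBP2, the main protein of the cytoplasmic filaments, had 200.3, 180.3 and 180.2 against 255.0, 273.4 and 269.8 CPM and rose by 0.51 ± 0.05 (SE; edgeR adjusted p = 1.42e-08). Of its 75-base stretches, 20.1% recur elsewhere, chiefly in RGPD1. TPR, the fibre of the basket, rose by 0.20 ± 0.05. POM121C (−0.20 ± 0.06) and POM121 (−0.16 ± 0.06) fell, with the call of POM121 lost without control library A (−0.08) or knockdown library B or C (both −0.16). In POM121C and POM121, 39.3% and 51.7% of the 75-base stretches recur elsewhere, chiefly in the other gene of the pair. RAE1, the partner of NUP98 in mRNA export, fell by 0.19 ± 0.05.

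Of the 6 Ran cycle genes 4 fell and none rose, or 66.7% called beside 64.3% of all tested genes (32.2% lower). RCC1, the exchange factor that makes RanGTP on chromatin, had 130.5, 137.9 and 132.2 CPM in control cells and 73.2, 74.7 and 74.7 CPM after knockdown. It fell by 0.85 ± 0.05 on the log2 scale (SE; edgeR adjusted p = 1.55e-12). RANBP1 (−0.44 ± 0.05), the GTPase activator RANGAP1 (−0.31 ± 0.04) and RAN itself (−0.23 ± 0.04) also fell. RAN had 617.9, 667.6 and 666.0 against 551.9, 564.2 and 546.3 CPM. The Ran importer NUTF2 (0.04 ± 0.05) and the XPO1 cofactor RANBP3 (0.05 ± 0.05) did not pass, and both were below 0 with library size alone. CSE1L, the exportin that returns importin alpha to the cytoplasm, stood at 504.2 ± 4.79 CPM in control cells and 534.8 ± 21.6 CPM after knockdown (SD, n = 3) and did not pass (0.09 ± 0.04), except without knockdown library A (0.12). CSE1L, RANBP6 and SNUPN are not Ran cycle genes but the 3 tested transport receptors outside the naming rule. Of these, 1 rose and 1 fell, or 66.7% called beside 64.3% of all tested genes. RANBP6 rose by 0.23 ± 0.05 and the snRNP import adaptor SNUPN fell by 0.15 ± 0.06. The call of SNUPN was lost in 6 of 12 alternatives, among them 5 of the 6 that left out a library (−0.17 to −0.12).

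**Figure D4:**
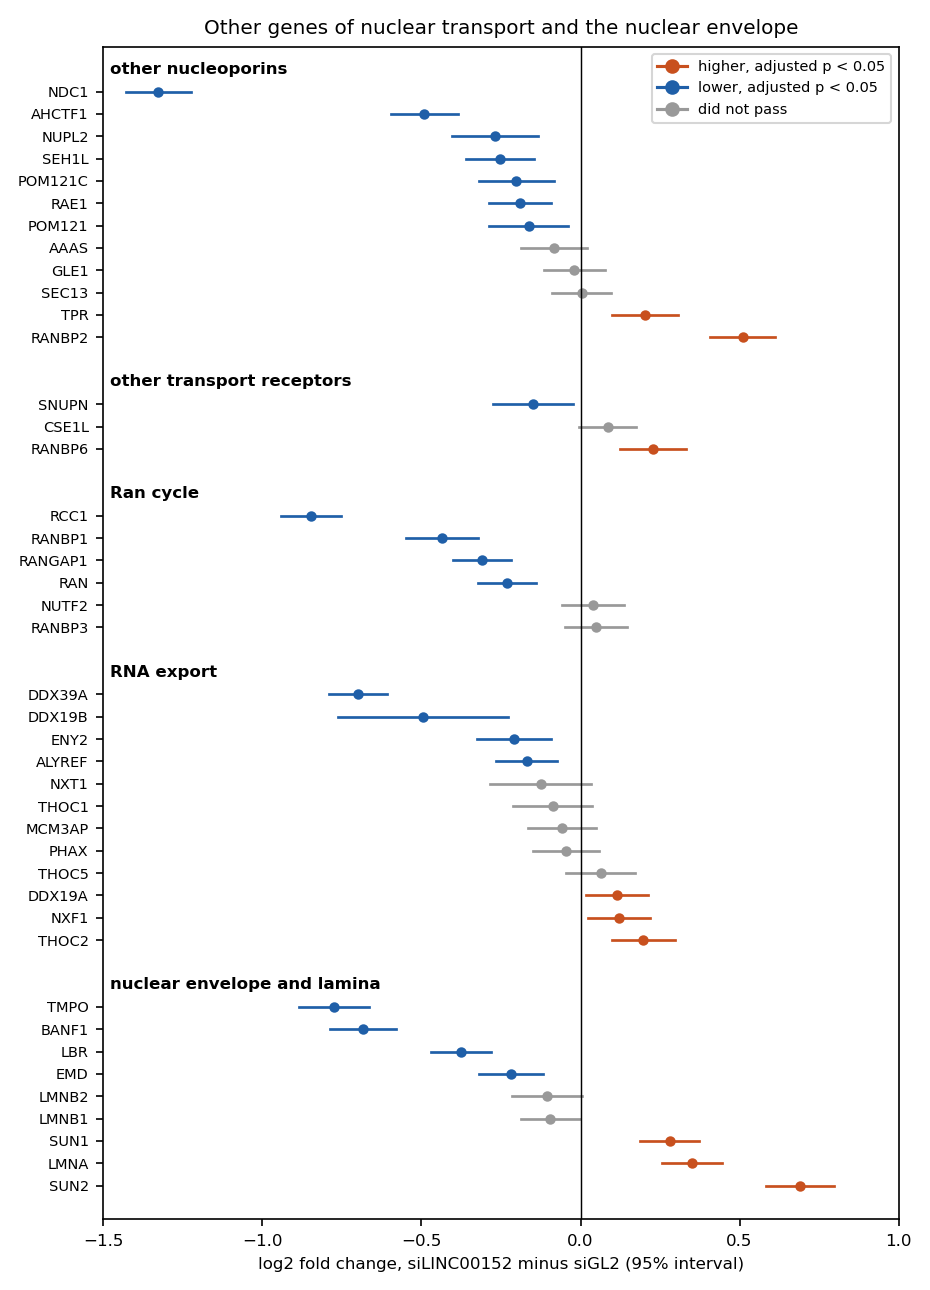
Log2 fold change (siLINC00152 minus siGL2, horizontal axis) with 95% confidence intervals of the 42 tested genes of the wider list, by group; colour marks genes past an adjusted p of 0.05. NDC1 (−1.33) and RCC1 (−0.85) lie farthest to the left, SUN2 (0.69) farthest to the right.

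Of 12 tested RNA export genes 3 rose and 4 fell, or 58.3% called, below the 64.3% of all tested genes. The helicase gene DDX39A fell by 0.70 ± 0.04 (SE; edgeR adjusted p = 1.82e-11), DDX19B by 0.50 ± 0.13 and ENY2 by 0.21 ± 0.06. THOC2 rose by 0.20 ± 0.05, the mRNA export receptor gene NXF1 by 0.12 ± 0.05 and DDX19A by 0.11 ± 0.05. The call of DDX19A was lost in 9 of 12 alternatives and that of NXF1 in 5, among them leaving out control library B or C or knockdown library B or C (0.11 to 0.12 in NXF1). Of 75-base stretches, 30.5% in DDX19B and 22.4% in DDX19A recur elsewhere, chiefly in the other gene of the pair. DDX39B, the paralog of DDX39A, is listed at 0 in all 6 libraries. Other annotated genes on the same strand overlap 30.8% of its exonic bases. A minority of its 75-base stretches recur elsewhere, chiefly in ATP6V1G2-DDX39B. Most of its exonic bases and stretches are thus not shared in these ways. The cause of the 0, and whether the gene was expressed, were not tested. Of 9 envelope and lamina genes 3 rose and 4 fell, or 77.8% called beside 64.3% of all tested genes. TMPO, which encodes the lamina-associated polypeptides LAP2, fell by 0.77 ± 0.05, the chromatin-bridging factor BANF1 by 0.68 ± 0.05 and the lamin B receptor LBR by 0.38 ± 0.05. SUN2 rose by 0.69 ± 0.05, LMNA, the gene of lamins A and C, by 0.35 ± 0.05 and SUN1 by 0.28 ± 0.04. In SUN2, 23.4% of the exonic sequence is overlapped by opposite-strand genes. LMNB1 (−0.09 ± 0.04) and LMNB2 (−0.11 ± 0.05) did not pass, though both passed downward with library size alone (−0.16 and −0.17), as did LMNB2 without control library C (−0.16) and with the replicate letters as a block (−0.10), and LMNB1 with the filter of 1 CPM (−0.10).

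The counting could also touch a few other members. Genes of the opposite strand overlap 18.7% of the exonic bases of NUP88 and 10.4% of those of NUP62. Genes of the same strand overlap 22.6% of those of IPO11 and 11.96% of those of NUP62. Of the 75-base stretches of NUP62, 14.4% recur elsewhere, chiefly in IL4I1, and in IPO11 the share is 18.8%, chiefly in LRRC70. In NUP88 it is 14.96%, chiefly in RPAIN, and in KPNA1 14.41%, chiefly in AC083798.2. In NUP58, KPNB1, NUP160, IPO13 and XPO5, each of these shares was under 5%. Among the other transport genes named, the share of 75-base stretches found elsewhere was 21.7% in SNUPN, 13.9% in SUN1, 13.6% in SUN2, 11.4% in NUPL2 and 10.3% in RANBP1. Same-strand genes overlap 23.8% of the exonic bases of DDX19A, 16.2% in SNUPN, 15.7% in DDX19B and 15.6% in SUN1. Opposite-strand genes overlap 15.4% in SNUPN, 12.96% in NUPL2 and 18.9% in POM121.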

How the data were processed

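PolyA RNA of 6 U87 libraries, 3 per group, was made into directional libraries and read from both ends over 75 bases, per the labels' protocols. The deposited values are raw counts per gene symbol. The submitters' processing notes name bcl2fastq, HISAT, HTSeq, DESeq and hg38, without versions. For the annotation, the strand setting and multiply matching reads nothing is given in the sources used here. Overlap with other genes was computed from GENCODE release 29, which matched all 45 members, and is reported for named genes where a share reaches 10%.

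Counts were analysed with R 4.3.3, edgeR 4.0.16 and DESeq2 1.42.0, and tables and figures were made with Python 3.11.15, pandas 2.3.3 and matplotlib 3.10.9. The filterByExpr rule (a minimum count of 10 and a total of at least 15) left 14078 of 27192 genes. Scaling was by TMM. Groups were compared on all 6 libraries by edgeR's robust quasi-likelihood test, two-sided, without covariates, with Benjamini-Hochberg adjustment over all tested genes. Standard errors are the fold change over the root of F. Levels per kilobase use all exonic bases of a gene. Counts of this comparison were simulated for 14078 genes, of which 13977 passed the filter and were tested. The test recovered 84% of genes changed 1.5-fold, 94% at 2-fold, all 50 at 4-fold, and 64% at the smallest change set. Of the 13878 genes simulated as unchanged, 17 were called.

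Members and lists were chosen with earlier results of these data known. Per-library values are given for the 8 largest rises and 8 largest falls at 5 CPM or more, for KPNB1 and XPO1 and for the most abundant member per kilobase of each class, then for the genes compared with them. From the wider list, the rule named the 3 largest rises and falls of each group and partners of members. Other genes, and the ratios, were named after their values were seen. Alternatives were DESeq2, library size alone, RLE scaling, no filter, a filter of 1 CPM in 3 libraries, the replicate letters as a block, and leaving out each library.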

Additional observations from a re-analysis of the deposited data

How the results depend on the processing

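Of the 30 members past the threshold, 22 kept their call and direction in all 12 alternatives, and the other 8 (NUP54, NUP214, NUP88, NUP98, NUP188, KPNA3, KPNA6 and XPO6) lost it in at least 1 without changing direction. With library size alone, 7 members were higher and 22 lower. Leaving out each library gave 8 to 15 members higher, with 8 without siGL2 replicate B or siGL2 replicate C and 15 without siGL2 replicate A, and 15 to 18 lower. In the wider list it gave 7 to 10 higher and 18 to 20 lower, and 25 of 29 calls held in all alternatives. LINC00152 stayed between −2.56 and −2.45 there.

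The genes that changed direction had not passed. With library size alone, the log2 fold change became −0.051 in NUP153, −0.012 in NUP107, −0.064 in SEC13, −0.019 in RANBP3, −0.028 in NUTF2 and −0.0040 in THOC5, and SEC13 stood at −0.0062 with the filter of 1 CPM. Leaving out each library gave −0.051 to 0.0028 in IPO5, −0.15 to 0.0038 in NUP155, −0.022 to 0.083 in NUP153 and −0.022 to 0.025 in SEC13. The cause of these changes was not tested.

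With the replicate block, 12 members were higher and 18 lower, as without it, and in the wider list 9 were higher and 21 lower. Same-lettered libraries did not deviate together (correlations of 0.08, −0.01 and 0.07), and not every library correlated best with its own letter, so the letters are not taken as pairs. Of the smallest changes set in simulated counts, with a median absolute log2 fold change of 0.31, 3 libraries a group recovered 64%. The members had a median of 0.17, and how many changes of that size go uncalled was not tested. In the simulated counts, 13878 of 14078 genes simulated were unchanged, whereas 64.3% of all tested genes passed here. The 64% therefore does not carry over to these data.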
